A study of Manihot esculenta with 44 samples.

Results

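PS2 (MANES_04G138100), PAP17 (MANES_14G173500) and SPX3 (MANES_01G269100) are cassava genes named after the phosphate-status genes of Arabidopsis that the deposited annotation gives as their best hits. They are 3 of the 34120 gene IDs in the tables, and all 3 were among the 23405 genes that passed a filter on low values. The members were picked by gene ID, with earlier results of these data known, so their own differences below are a description and carry no test.

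Phosphate is often scarce in soil, and plants sense their internal supply through inositol pyrophosphates, which bind SPX domain proteins. In Arabidopsis, SPX proteins hold back the transcription factor PHR1 while phosphate is ample, and when it runs short PHR1 is freed and switches on a starvation programme that includes SPX3, the purple acid phosphatase PAP17 and the phosphatase PS2. Purple acid phosphatases release phosphate from organic compounds, and other genes of the programme move phosphate between organs or replace phospholipids by sulfolipids and galactolipids. These roles are known from Arabidopsis, and leaf phosphate itself was not measured here.

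The leaves came from KU50, a cassava variety propagated by lignified stem pieces, grown at a Hanoi field and a Bac Kan field in Vietnam with a similar NPK supply according to the labels. The Hanoi plants, on a general field, did not flower and were sampled in 2019 on 24 May, 13 July, 7 August and 10 October. The Bac Kan plants, in a mountainous area, flowered and were sampled on 31 May, 29 June, 26 July, 15 August, 11 September, 5 October and 30 October. Each of the 11 groups had 4 libraries, and the labels do not say whether these came from separate plants. Site and flowering went together and cannot be told apart. The p-values given for other genes measure only the spread between these libraries, which may be technical.

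The FPKM sum of a library was 664145 to 804362 as deposited. After rescaling each library to a total of 1000000, it had 18275 to 19777 genes at 1 or more. A relative depth read from the spacing of low values ran from 0.7605 to 1.6077. The Hanoi 10 October libraries, at 1.3333 to 1.6077, lay above those of Bac Kan 5 October, at 0.8207 to 0.9693, and the other pairs of dates overlapped. The 4 Hanoi 24 May libraries were the least alike, with mean correlations within their group of 0.8655 to 0.876, against 0.9107 or more in every other group. Leaf identity was checked with 7 homologues of RCA, LHCB2.1, PSBO1 and CA1, which summed to 7177 to 27951 per library. The 8 homologues of the xylem genes CESA4, CESA7, CESA8 and XCP1 summed to 0.087 to 5.79.

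All levels below are these rescaled FPKM, which are scaled for transcript length. Differences are on the log2(level + 1) scale, as value ± SE from 1 limma fit of the 44 libraries. In a piece of leaf, fewer cells of a type and less RNA per cell cannot be told apart.

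PS2 was the most abundant of the members, with a median of 53.8 over the 44 libraries and no library at 0, and its mean was above that of 89.28% of the genes tested. PAP17 had a median of 2.64, ran up to 37.4 and was listed at 0 in 7 libraries. SPX3 had a median of 5.06, ran up to 55.5 and was listed at 0 in 3 libraries. PS2 was thus measured everywhere, while PAP17 was near the lower end of the scale through July and SPX3 was lowest in Bac Kan on 15 August. The season profiles differed as well. PS2 peaked in Bac Kan in late July, and PAP17 and SPX3 stood highest in Bac Kan at the end of October.

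**Figure D1:**
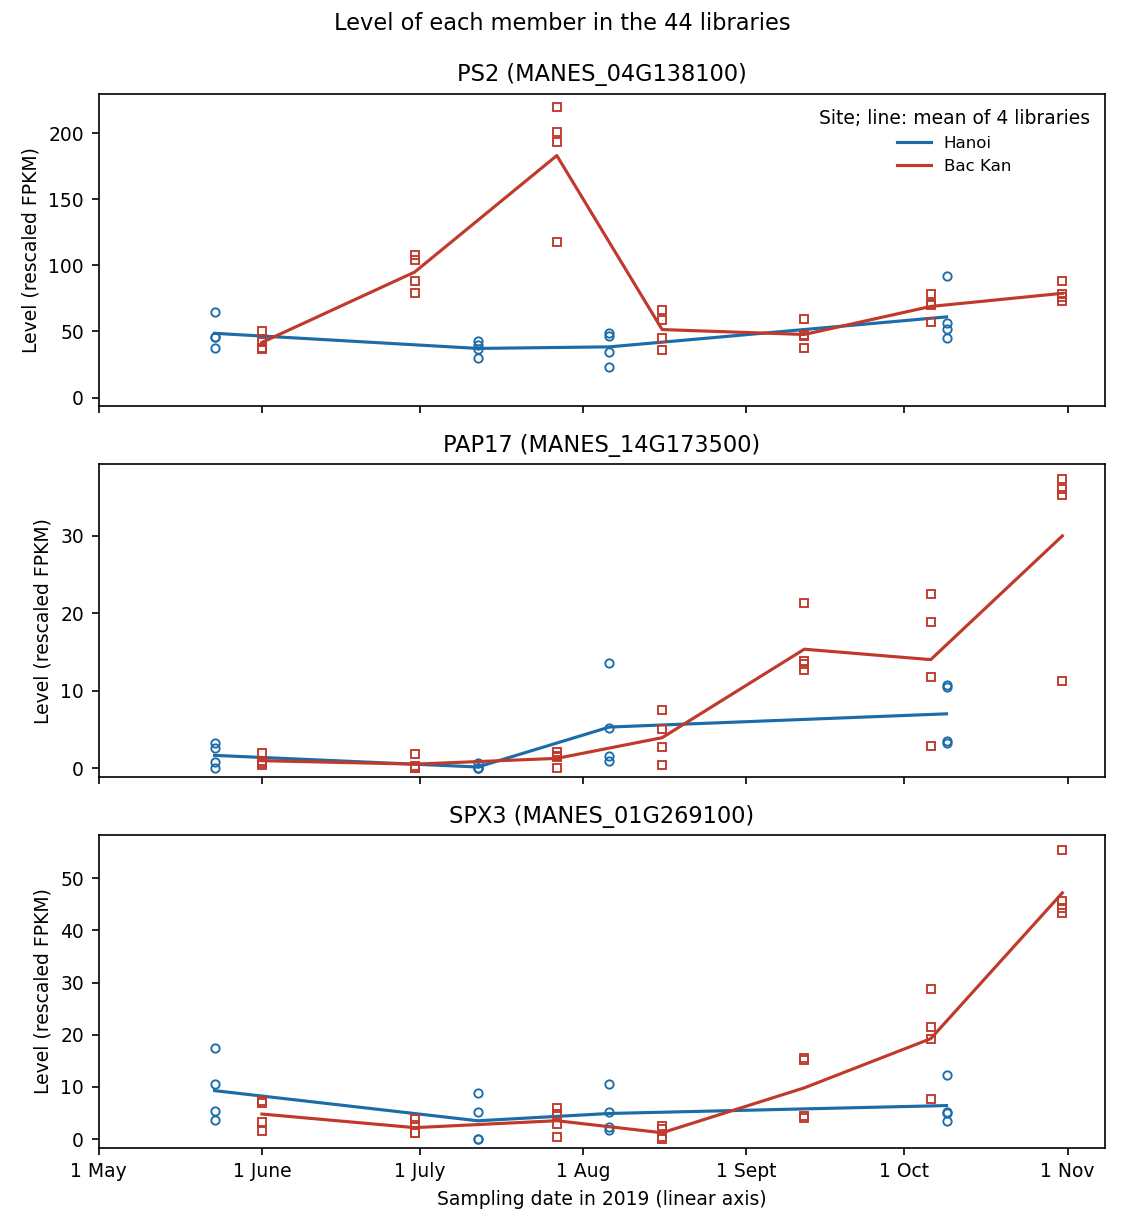
Level (FPKM rescaled to a total of 1000000, linear axes) of PS2, PAP17 and SPX3 in each library by sampling date, with an open point per library and a line through the mean of 4; Hanoi is blue with circles and Bac Kan is red with squares. PS2 stands apart in Bac Kan on 26 July at 118 to 220, SPX3 stands apart in Bac Kan on 30 October at 43.3 to 55.5, and PAP17 is highest there on 30 October with 1 library at 11.3.

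SPX3 encodes a small SPX domain protein that in Arabidopsis restrains the starvation response and is itself strongly induced by it. In Bac Kan it stood at 7.32, 3.33, 1.63 and 6.97 on 31 May. It stood at 1.14, 3.84, 2.63 and 1.21 on 29 June. These early Bac Kan libraries were all low.

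On 26 July the Bac Kan libraries held SPX3 at 5.96, 0.484, 4.73 and 2.94. On 15 August they held 1.89, 0.434, 0 and 2.58, the lowest group of the season. From then on each later date had a higher mean.

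SPX3 stood at 4.46, 4.11, 15.2 and 15.6 in Bac Kan on 11 September. It stood at 7.67, 21.4, 19.2 and 28.8 on 5 October. On 30 October the libraries read 45.6, 55.5, 43.3 and 44.4, so every 30 October library lay above every library of any other date at either site.

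In Hanoi, SPX3 stood at 5.39, 3.68, 17.6 and 10.6 on 24 May. On 13 July it was listed at 0 in a pair of libraries and at 8.85 and 5.23 in the others. The Hanoi values spread widely within a date.

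On 7 August the Hanoi libraries held SPX3 at 1.71, 2.24, 5.13 and 10.6. On 10 October they held 5.11, 12.2, 5.01 and 3.42. The 4 Hanoi groups overlapped each other, and none came near the Bac Kan libraries of 30 October.

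By mean, SPX3 ran from Bac Kan 30 October at 47.2 ± 5.61 (SD, n = 4) through Bac Kan 5 October at 19.3 ± 8.74 and Bac Kan 11 September at 9.83 ± 6.41 to Hanoi 24 May at 9.30 ± 6.24. Hanoi 10 October followed at 6.44 ± 3.93, Hanoi 7 August at 4.92 ± 4.07, Bac Kan 31 May at 4.81 ± 2.79 and Bac Kan 26 July at 3.53 ± 2.38. Hanoi 13 July, Bac Kan 29 June and Bac Kan 15 August came last. Bac Kan 30 October did not overlap its neighbour in this order, and all other neighbours overlapped.

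The SPX3 difference between Bac Kan 30 October and 31 May was 3.19 ± 0.62. With 5 October as the last date, an alternative chosen after seeing the data, it was 1.82. Between Hanoi 10 October and 24 May it was -0.40 ± 0.62, and with 13 July in place of 24 May it turned to 1.28. The sign of the Hanoi season difference therefore hung on the date taken as the start.

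Between sites, SPX3 differed by -0.77 ± 0.62 in late May and 0.48 ± 0.62 in July, where a positive value means higher in Bac Kan. It differed by -1.35 ± 0.62 for August and 1.44 ± 0.62 for October. The libraries of the sites overlapped in all 4 pairs, where 20.9%, 12.6%, 16.9% and 27.8% of the genes tested had no overlap, in season order. Without Hanoi 13 July library 1 the July difference was -0.01. The mean over the pairs was -0.05 ± 0.31. Bac Kan 30 October, the date of the highest SPX3, has no Hanoi partner.

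PAP17 encodes a purple acid phosphatase that Arabidopsis makes under phosphate starvation and in senescing leaves. In Bac Kan it stood at 0.373, 0.659, 1.94 and 0.987 on 31 May. On 29 June it was listed at 0 in a pair of libraries and at 0.317 and 1.86 in the others. It was close to the lower limit of the scale at both dates.

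On 26 July the Bac Kan libraries held PAP17 at 2.12, 0, 1.56 and 1.46. On 15 August they held 2.69, 5.11, 0.477 and 7.56. The August libraries spread from near the July level to above it.

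PAP17 stood at 13.9, 13.5, 21.4 and 12.7 in Bac Kan on 11 September, all above the 4 libraries of 15 August. It stood at 2.95, 18.9, 22.5 and 11.8 on 5 October. On 30 October it stood at 35.3, 36.0, 11.3 and 37.4, with 3 libraries above every other library of the series. The fourth lay inside the range of 5 October and below all 4 libraries of 11 September.

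In Hanoi, PAP17 stood at 0, 2.59, 0.784 and 3.33 on 24 May. On 13 July it was listed at 0 in 3 libraries and at 0.702 in the other. Both Hanoi dates were low.

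On 7 August the Hanoi libraries held PAP17 at 0.974, 1.54, 5.19 and 13.6. On 10 October they held 10.5, 3.55, 3.31 and 10.8. The lowest library of 10 October, at 3.31, lay just under the highest of 24 May, at 3.33, so these groups touched.

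By mean, PAP17 ran from Bac Kan 30 October at 30.0 ± 12.5 (SD, n = 4) through Bac Kan 11 September at 15.4 ± 4.03 and Bac Kan 5 October at 14.0 ± 8.62 to Hanoi 10 October at 7.04 ± 4.17. Hanoi 7 August followed at 5.33 ± 5.83 and Bac Kan 15 August at 3.96 ± 3.05. Hanoi 24 May, Bac Kan 26 July, Bac Kan 31 May, Bac Kan 29 June and Hanoi 13 July made up the low end. Every neighbour in this order overlapped the next.

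The PAP17 difference between Bac Kan 30 October and 31 May was 3.88 ± 0.58, and without the low 30 October library it was 4.28. With 5 October as the last date it was 2.70. Between Hanoi 10 October and 24 May it was 1.65 ± 0.58, and 2.65 from 13 July. A season difference of the same sign was thus present at both sites, and whether its size differed between them was not tested.

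Between sites, PAP17 differed by -0.26 ± 0.58 in late May and 0.88 ± 0.58 in July. It differed by -0.17 ± 0.58 for August and 0.79 ± 0.58 for October, and the libraries overlapped in all 4 pairs. The mean over the pairs was 0.31 ± 0.29. The signs in late May, July and August were not firm. Late May was 0.37 and July was -0.19 when only the most abundant transcript was used, and August was 0.39 without Hanoi 7 August library 4. Late May was 0.04 without Hanoi 24 May library 4.

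The annotation splits PAP17 into 5 transcripts, and the estimate for the gene moved between them. Transcript 1 was the most abundant in 20 libraries, transcript 5 in 9 and transcripts 2 and 4 in 4 each. In Bac Kan on 30 October transcript 1 made up 50.4% of the gene's mean level and transcript 5 made up 40.4%. In Hanoi on 10 October transcript 1 made up 60.7% and transcript 5 made up 0.350%. In Bac Kan on 26 July transcript 5 made up 58.8% and transcript 2 made up 41.2% of a gene mean of only 1.29. These shares are the authors' estimates, which divide the reads of a gene among its transcripts.

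PS2 encodes a phosphatase of the haloacid dehalogenase (HAD) family. In Bac Kan it stood at 41.8, 36.8, 37.7 and 50.4 on 31 May. It stood at 79.2, 88.1, 108 and 104 on 29 June, every library above those of 31 May. It stood at 193, 118, 220 and 201 on 26 July, every library above those of 29 June.

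By 15 August the Bac Kan libraries held PS2 at 35.7, 45.4, 65.9 and 58.6. On 11 September they held 37.6, 47.1, 59.5 and 46.4. Both dates overlapped 31 May, so the mid-summer level was no longer present.

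On 5 October the Bac Kan libraries held PS2 at 78.3, 70.7, 56.8 and 69.7. On 30 October they held 87.9, 76.1, 72.6 and 78.6. These late libraries lay above all of 31 May and below all of 26 July.

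In Hanoi, PS2 stood at 64.8, 46.0, 37.8 and 45.7 on 24 May. It stood at 29.6, 36.4, 39.4 and 43.1 on 13 July. All of these lay below the Bac Kan libraries of 26 July.

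On 7 August the Hanoi libraries held PS2 at 23.2, 48.8, 46.6 and 34.7. On 10 October they held 44.7, 91.8, 56.0 and 51.5, where library 2 stood above the others but below the lowest Bac Kan library of 26 July, at 118. The Hanoi dates overlapped each other, except that every library of 13 July lay below every library of 10 October.

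By mean, PS2 ran from Bac Kan 26 July at 183 ± 45.0 (SD, n = 4) through Bac Kan 29 June at 94.9 ± 13.5, Bac Kan 30 October at 78.8 ± 6.52 and Bac Kan 5 October at 68.9 ± 8.93 to Hanoi 10 October at 61.0 ± 21.0. Bac Kan 15 August followed at 51.4 ± 13.5, Hanoi 24 May at 48.6 ± 11.5, Bac Kan 11 September at 47.7 ± 9.02 and Bac Kan 31 May at 41.7 ± 6.21. Hanoi 7 August at 38.3 ± 11.8 and Hanoi 13 July at 37.1 ± 5.73 were lowest. Bac Kan 26 July did not overlap its neighbour, and all other neighbours overlapped.

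Between sites, PS2 differed by 2.24 ± 0.22 in July. Its other differences were -0.20 ± 0.22 for late May, 0.43 ± 0.22 for August and 0.22 ± 0.22 for October, with a mean over the pairs of 0.67 ± 0.11. In July all 4 Bac Kan libraries lay above all 4 Hanoi libraries, an arrangement found in 7.46% of the genes tested, and in the other pairs the sites overlapped. The July dates lay 13 days apart, and with Bac Kan 29 June in place of 26 July the difference was 1.33. Without any 1 library the July difference ran from 2.14 to 2.44. In the same pair the leaf marker sums were 20163 to 27951 for Hanoi and 14807 to 18466 for Bac Kan, the xylem sums were 1.96 to 3.42 and 4.87 to 5.79, and the part of tissue makeup in the PS2 difference was not tested.

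Within Bac Kan, PS2 stepped by 1.17 ± 0.22 from 31 May to 29 June, by 0.91 ± 0.22 to 26 July and by -1.81 ± 0.22 to 15 August. The last date differed from the first by 0.91 ± 0.22. In Hanoi the last date differed from the first by 0.30 ± 0.22, and by 0.08 without 10 October library 2. With 13 July as the first Hanoi date it was 0.66, so the size of the Hanoi difference hung on the date and the library.

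**Figure D2:**
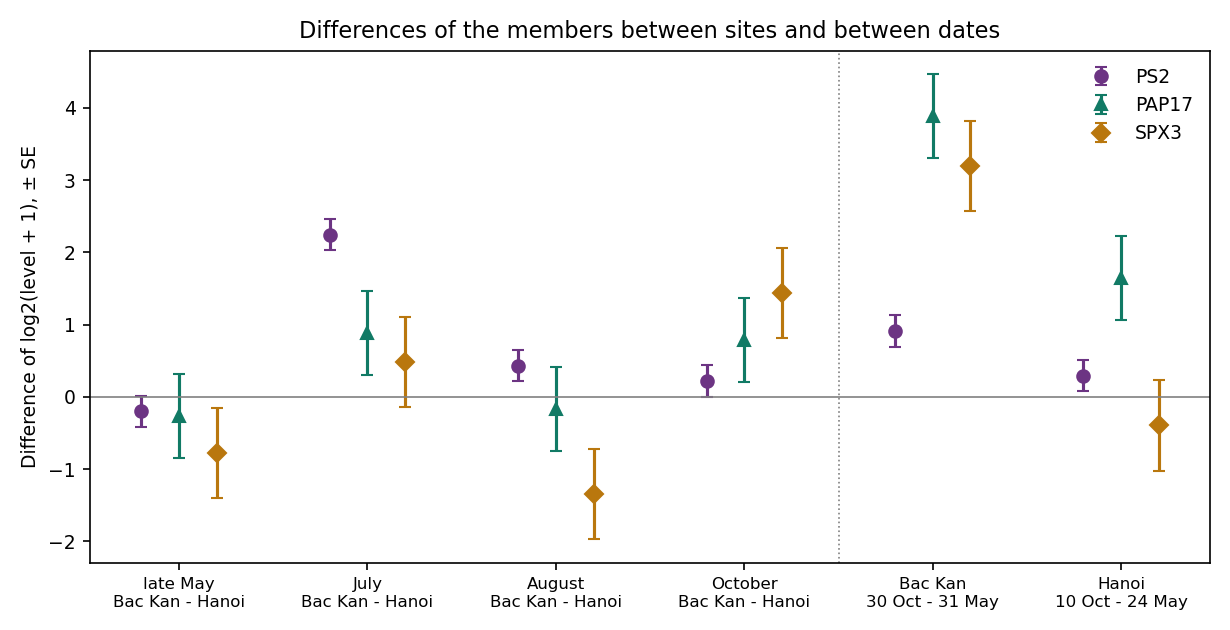
Differences of PS2, PAP17 and SPX3 on the log2(level + 1) scale with bars of ± 1 SE from the fit of 44 libraries, for Bac Kan minus Hanoi at the 4 pairs of dates and for the last minus the first date at each site. PS2 stands out in July at 2.24, and PAP17 and SPX3 stand out over the Bac Kan season at 3.88 and 3.19.

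Across the 3 genes, every Bac Kan library of 30 October lay above every library of 31 May for 3 of 3, an arrangement found in 15.8% of the genes tested. In Hanoi every 10 October library lay above every 24 May library for 0 of 3, against 20.4% of the genes tested. These values belong to the readout from which the members were taken and are given as a description.

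Over the 11 group means, PAP17 and SPX3 had a Pearson correlation of 0.79, and PS2 had 0.02 with PAP17 and 0.10 with SPX3. Over the 7 Bac Kan means PAP17 and SPX3 had 0.83 and over the 4 Hanoi means 0.55. Between libraries of the same group their deviations correlated at 0.37. The points share fields and dates, so these correlations describe the profiles and were not tested.

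Each member was set beside 7427 genes with a named best hit and a highest group mean of 5 or more. Over the 11 group means, the profiles most like SPX3 were those of SDP6 (MANES_S019000) at a Pearson correlation of 0.94, the second cassava SPX3 copy (MANES_05G049200) at 0.93, SE (MANES_S021700) at 0.91, TRB1 (MANES_S014100) at 0.90 and LCAT3 (MANES_13G001900) at 0.89. All 5 had their highest mean in Bac Kan on 30 October, as SPX3 did, which largely follows from choosing them by likeness to it. The profiles most like PAP17 were those of DGD2 (MANES_05G038100) at 0.95, SRG3 (MANES_04G089800), which is also called GDPD1, at 0.95, KNAT3 (MANES_06G041200) at 0.94, TRB1 (MANES_S014100) at 0.94 and RPN1A (MANES_12G089500) at 0.93. DGD2 makes digalactolipid and GDPD1 breaks down glycerophosphodiesters. For PS2 the closest were GCN4 (MANES_11G051400) at 0.87, GAUT6 (MANES_05G084900) at 0.82, SEC (MANES_08G146600) at 0.81, U2AF35B (MANES_11G156300) at 0.80 and SHS1 (MANES_03G016300) at 0.79, and none of them is on the phosphate list described next.

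A list of 72 Arabidopsis phosphate genes in 10 roles matched 105 cassava genes, 102 of them besides the members, of which 84 passed the filter. A correlation of 0.7 or more with PAP17 was found for 25 of the 84, or 29.76%, against 7.132% of all other genes tested. For SPX3 it was 13 of the 84, or 15.48%, against 3.726%. For PS2 it was 1 of the 84, or 1.19%, against 0.6495%. The list's median correlation was 0.51 with PAP17, 0.35 with SPX3 and -0.04 with PS2, where all genes had 0.15, 0.12 and 0.00. The member profiles belong to the readout from which the members were taken. The list, too, was chosen with earlier results of these data known. The shares and medians are therefore a description and were not tested.

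The closest relatives of SPX3 were its second copy and the SPX1, SPX2 and SPX4 homologues. The second copy, MANES_05G049200, shared the late Bac Kan peak. It ran from 11.4 to 36.2 in Bac Kan on 30 October and from 1.79 to 2.93 on 31 May, and the difference of 2.53 ± 0.62 passed the test (limma adjusted p = 0.0017, all 4 libraries higher). It no longer passed under a pseudocount of 0.1 (adjusted p = 0.11) and with 5 October as the last date (adjusted p = 0.61). In October it was higher in Bac Kan by 1.64 ± 0.62 (limma adjusted p = 0.047) with overlapping groups of 0 to 12.8 and 0 to 1.83, and that call was lost under 4 of the other settings, with adjusted p of 0.051 to 0.19, and without Bac Kan 5 October library 3, among others, where p was 0.22. Reads that fit both copies cannot be assigned from the tables, so the split between MANES_01G269100 and MANES_05G049200 is uncertain.

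The SPX2 homologues, whose Arabidopsis counterpart binds PHR1, each passed the test in at least 1 comparison. SPX2 MANES_18G052600 went from 17.1 ± 9.52 to 76.1 ± 8.70 in Hanoi between 24 May and 10 October, a rise of 2.34 ± 0.34 (limma adjusted p = 6.0e-07), while its Bac Kan difference of 0.53 ± 0.34 did not pass (adjusted p = 0.28). In late May SPX2 MANES_18G052600 was already higher in Bac Kan by 1.96, a call kept in every alternative fit. SPX2 MANES_16G121300 went from 48.0 ± 13.6 to 83.4 ± 19.0 in Bac Kan, a rise of 0.80 ± 0.23 (limma adjusted p = 0.0065), which was lost when only the groups compared were fitted (adjusted p = 0.072) and without Bac Kan 31 May library 3 (adjusted p = 0.062). SPX2 MANES_14G132600 was higher in Bac Kan in July by 0.88 ± 0.24 (limma adjusted p = 0.013), which was lost in the fit of the compared groups alone (adjusted p = 0.079) and without Hanoi 13 July library 3 or library 4. Its rise of 0.71 over the Bac Kan season also passed. That call was lost with FPKM as deposited, with median-ratio scaling and without several single libraries. SPX4 MANES_02G048200 rose in Hanoi from 7.19 ± 5.03 to 32.2 ± 10.4, by 2.19 ± 0.40 (limma adjusted p = 2.2e-05), and its Bac Kan difference was -0.83 ± 0.40 (adjusted p = 0.13). Between the sites SPX4 differed by 1.30 in late May and -1.11 in October, and both passed. The late May call was lost in the fit of the compared groups and without Hanoi 24 May library 4. The October call was lost under a pseudocount of 0.1 and without several single libraries. SPX1 MANES_04G114200 did not pass the filter and was listed at 0 to 10.6. Whether these last-against-first differences differed between the sites was not tested directly. A change of the site difference over the 4 pairs of dates was tested (limma F test). It passed for SPX4 MANES_02G048200 (adjusted p = 0.0016) and SPX2 MANES_18G052600 (adjusted p = 0.0043). It did not pass for SPX2 MANES_14G132600 (adjusted p = 0.24) or SPX2 MANES_16G121300 (adjusted p = 0.090).

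The closest relatives of PS2 were a pair of PECP1 homologues, HAD phosphatases that in Arabidopsis act on phosphoethanolamine and phosphocholine. PECP1 MANES_11G028100 went from 11.8 ± 4.02 on 31 May to 115 ± 23.3 on 30 October in Bac Kan, a rise of 3.22 ± 0.37 (limma adjusted p = 1.1e-08). In Hanoi it went from 9.51 ± 6.02 on 24 May to 65.4 ± 6.90 on 10 October, a rise of 2.84 ± 0.37 (limma adjusted p = 5.9e-08), and its smallest adjusted p in a pair of dates between sites was 0.33. PECP1 MANES_03G047200 was lower in Bac Kan in late May, with a difference of -2.63 ± 0.51 (limma adjusted p = 0.00013), and higher there in August by 1.77 ± 0.51 (limma adjusted p = 0.014), the latter lost without Hanoi 7 August library 1 (adjusted p = 0.076). In July, when PS2 differed most, PECP1 MANES_11G028100 differed by -0.01 ± 0.37 and PECP1 MANES_03G047200 by 1.39 ± 0.51, and neither passed the test (adjusted p = 1.0 and 0.086).

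Purple acid phosphatases other than PAP17 differed between the sites in both directions over the pairs. Of 14 tested, 1 was higher in Bac Kan and 2 were lower in late May, 1 was higher in July and 1 was lower in August, against 28.7%, 8.84% and 14.5% of all genes called. The 2 lower in late May were PAP3 MANES_15G138200 with a difference of -1.83 ± 0.23 and PAP3 MANES_15G138300 with -2.08 ± 0.39 (limma adjusted p = 8.7e-08 and 7.8e-05, all 4 libraries lower). In October 6 passed and all of these were higher in Bac Kan, where 24.2% of all genes passed and 10.5% were higher. PAP3 MANES_15G138200 was then higher by 0.99 ± 0.23 (limma adjusted p = 0.0011). In the same pair PAP3 MANES_17G089100 had means of 33.5 ± 7.70 for Bac Kan and 4.83 ± 2.25 for Hanoi, a difference of 2.62 ± 0.33 (limma adjusted p = 9.3e-08, all 4 libraries higher). PAP3 MANES_15G138300 stood at 18.6 ± 9.49 and 2.30 ± 0.68, a difference of 2.43 ± 0.39 (limma adjusted p = 8.6e-06, all 4 libraries higher). PAP12 MANES_18G019000, a secreted acid phosphatase in Arabidopsis, stood at 34.5 ± 6.18 and 16.7 ± 3.82, a difference of 1.02 ± 0.32 (limma adjusted p = 0.018), lost without Bac Kan 5 October library 1 or Hanoi 10 October library 2. In the same pair PAP17 differed by 0.79 ± 0.58 with overlapping libraries. The relative depths of the sites did not overlap in that pair, nor did the leaf marker sums, at 7907 to 11732 for Bac Kan and 15539 to 19307 for Hanoi, with 5 of the 7 leaf genes lower in Bac Kan and 0 higher. Of the 11 senescence genes 3 were higher in Bac Kan and 2 lower, with NYE1 MANES_02G030000 higher by 1.69 ± 0.26 (limma adjusted p = 4.4e-06). Their part in the October differences was not tested.

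**Figure D3:**
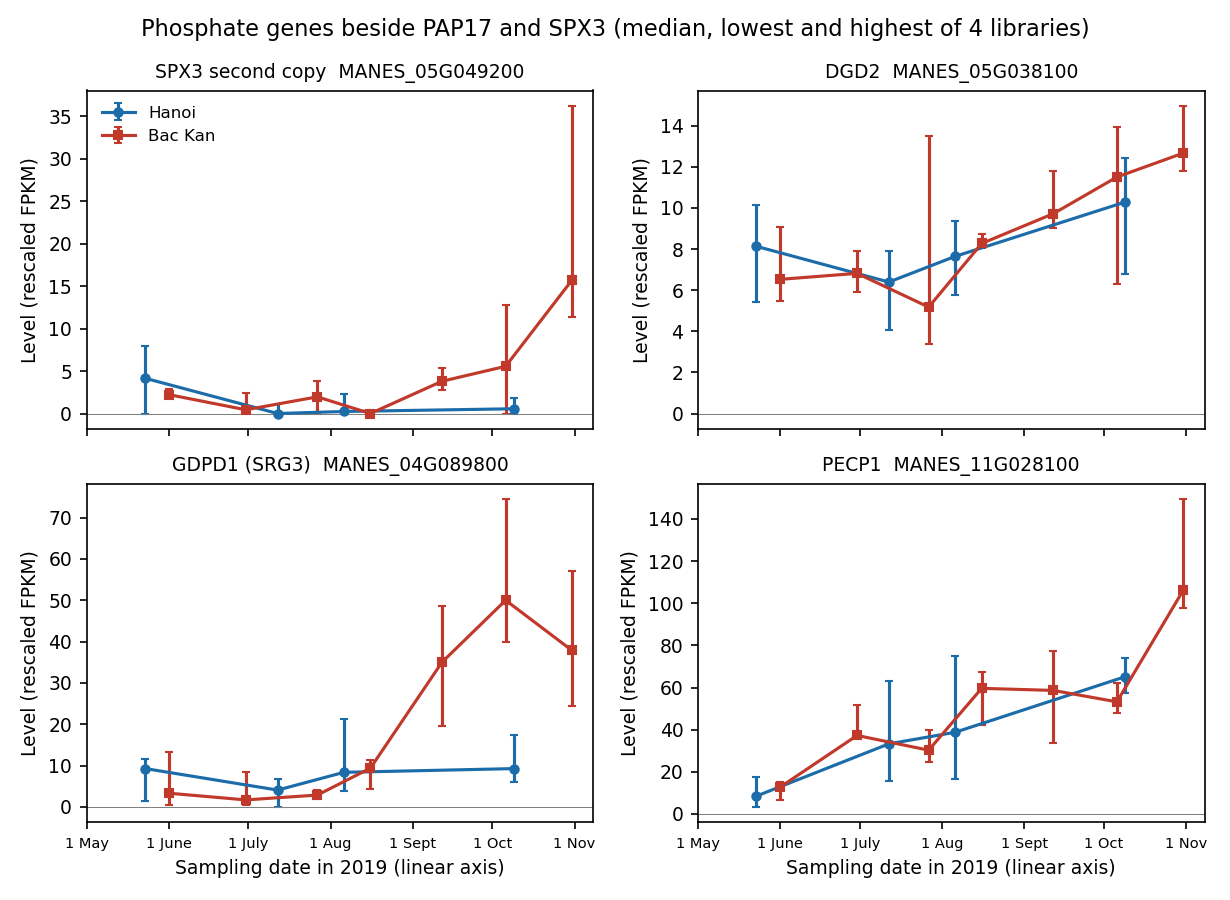
Levels (FPKM rescaled to a total of 1000000) by sampling date of the second SPX3 copy, DGD2, GDPD1 and PECP1 MANES_11G028100, as the median of 4 libraries with bars from the lowest to the highest, Hanoi in blue and Bac Kan in red. PECP1 stands high late in the season at both sites, with means of 115 in Bac Kan on 30 October and 65.4 in Hanoi on 10 October. The second SPX3 copy reaches 11.4 to 36.2 in Bac Kan on 30 October, a date without Hanoi libraries.

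Over the season the phosphate list held more genes that rose than fell at both sites, as did all genes tested. In Bac Kan, 36 of the 84 list genes were higher and 6 lower on 30 October than on 31 May, against 16.1% and 9.8% of all genes, with a median difference of 0.71 for the list and 0.10 for all genes. With 5 October as the last date 24 were higher and 3 lower, where 14.2% of all genes were called, with medians of 0.55 and 0.02. In Hanoi, 29 were higher and 15 lower on 10 October than on 24 May, against 25.3% and 17.2% of all genes, with medians of 0.39 and 0.13. The share of the list that fell in Hanoi was near that of all genes. With 13 July as the first Hanoi date 28 were higher and 7 lower, where 30.8% of all genes were called, with medians of 0.45 and 0.22. Scaling the libraries by median ratios moved the median of all genes by -0.10 in the Bac Kan and -0.11 in the Hanoi season, to -0.01 and 0.02. Hanoi and Bac Kan were sampled to different last dates, and the difference between their counts was not tested.

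Between neighbouring Bac Kan dates the list had its most calls from 15 August to 11 September, when 17 list genes were higher and 2 lower, or 22.6% of the list against 7.58% of all genes, with a median difference of 0.25 for the list and 0.07 for all genes. On the log2(level + 1) scale this was also the step of the largest differences of PAP17, at 1.97 ± 0.58, and of SPX3, at 2.25 ± 0.62. PS2 stepped by -0.09 ± 0.22. From 29 June to 26 July, when PS2 stepped by 0.91 ± 0.22, 2 list genes were higher and 3 lower, against 4.44% of all genes called. From 5 to 30 October 9 were higher and 2 lower, against 7.51%, with medians of 0.28 and 0.08, and SPX3 stepped by 1.38 ± 0.62 and PAP17 by 1.19 ± 0.58. In level both members rose more in this later step. The SPX3 mean went from 19.3 to 47.2, against 1.22 to 9.83 from 15 August to 11 September. The PAP17 mean went from 14.0 to 30.0, against 3.96 to 15.4.

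Between the sites the list's share of calls ran from 9.52% in July to 28.6% in late May and October. In late May 11 list genes were higher in Bac Kan and 13 lower, or 28.6% of the list against 28.7% of all genes, with 15 calls in all when only the groups compared were fitted. In July 3 were higher and 5 lower, or 9.52% against 8.84%, with 4 calls in that narrower fit and 5 without Hanoi 13 July library 4 or without Bac Kan 26 July library 1. In August 7 were higher and 11 lower, or 21.4% against 14.5%, and in October 16 were higher and 8 lower, or 28.6% against 24.2%. Of 15 tested homologues of PS2, PECP1, PAP17, PAP7, PAP8, PAP3 and SPX1 to SPX4, the late May pair called 5, July 2, August 1 and October 6. The site difference changed over the pairs for 39 of the 84 list genes, or 46.4%, against 38.1% of all genes (limma F test). Over the Bac Kan season 7 of the 15 homologues rose, against 16.1% of all genes, and over the Hanoi season 4 rose and 4 fell, against 25.3% and 17.2%.

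By role, 12 of 14 lipid remodelling genes rose and 2 fell between 31 May and 30 October in Bac Kan, where 16.1% of all genes rose and 9.8% fell. Over the same dates 8 of 17 transporters and 3 of 5 SPX homologues rose, and of 14 purple acid phosphatases 5 rose and 2 fell. SQD2 MANES_08G089200, the sulfolipid synthase, went from 71.4 ± 8.52 to 339 ± 49.6, a rise of 2.23 ± 0.16 (limma adjusted p = 1.7e-13). UGP3 MANES_10G010100, which supplies UDP-glucose for sulfolipid, rose from 24.3 ± 7.07 to 109 ± 34.7 (limma adjusted p = 1.5e-10). The 2 lipid genes that fell, named after their values were seen, were SQD1 MANES_03G048700, which makes the sulfolipid head group, with a difference of -1.04 ± 0.19 (limma adjusted p = 5.0e-05), and GDPD2 MANES_12G006400 with -1.18 ± 0.31 (limma adjusted p = 0.0033). In Hanoi 5 of the 14 lipid genes rose and 0 fell, a share not far from the 25.3% of all genes that rose there. SQD2 MANES_08G089200 rose in Hanoi by 0.96 ± 0.16 (limma adjusted p = 5.9e-06), a rise that was 0.02 with 13 July as the first date.

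Among transporters, PHT1;3 MANES_15G040200, a phosphate importer, went from 22.8 ± 2.84 to 141 ± 14.9 in Bac Kan, a rise of 2.58 ± 0.16 (limma adjusted p = 1.2e-15). It went from 41.2 ± 5.20 to 222 ± 16.5 in Hanoi, a rise of 2.41 ± 0.16 (limma adjusted p = 3.7e-15). The October pair had it lower in Bac Kan, with a difference of -1.53 ± 0.16 (limma adjusted p = 1.0e-09), and SPX3 in the same libraries ran from 7.67 to 28.8 at Bac Kan and from 3.42 to 12.2 at Hanoi. PHT1;9 MANES_18G002400 and G3Pp1 MANES_06G134900, a glycerol-3-phosphate permease, rose at both sites as well, by 1.86 ± 0.39 and 1.59 ± 0.24 in Bac Kan (limma adjusted p = 0.00034 and 2.3e-06) and by 2.77 ± 0.39 and 1.69 ± 0.24 in Hanoi (limma adjusted p = 3.2e-07 and 3.3e-07).

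PHR homologues, the activators that SPX proteins hold back in Arabidopsis, were tested beside the members. Of the 6 tested, 2 fell over the Bac Kan season, against 9.8% of all genes, and over the Hanoi season 2 rose and 1 fell, against 25.3% and 17.2%. PHL3 MANES_03G148100 fell by 1.98 ± 0.48 (limma adjusted p = 0.0018), a call lost with 5 October as the last date (adjusted p = 0.15). PHR1 MANES_12G035600 fell by 0.69 ± 0.25 (limma adjusted p = 0.034), a call lost with the most abundant transcript alone, with 5 October as the last date and without several single libraries (adjusted p up to 0.12). PHO2 MANES_16G027500, a ubiquitin-conjugating enzyme that lowers phosphate transporters in Arabidopsis, went from 16.2 ± 4.66 to 84.3 ± 15.5 in Bac Kan, a rise of 2.34 ± 0.22 (limma adjusted p = 1.8e-10), and rose in Hanoi by 1.67 ± 0.22 (limma adjusted p = 1.2e-07). VIH1 MANES_15G175400, an inositol pyrophosphate kinase, rose in Bac Kan by 1.87 ± 0.21 (limma adjusted p = 5.4e-09), but by 0.99 with an adjusted p of 0.26 when only its most abundant transcript was used.

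**Figure D4:**
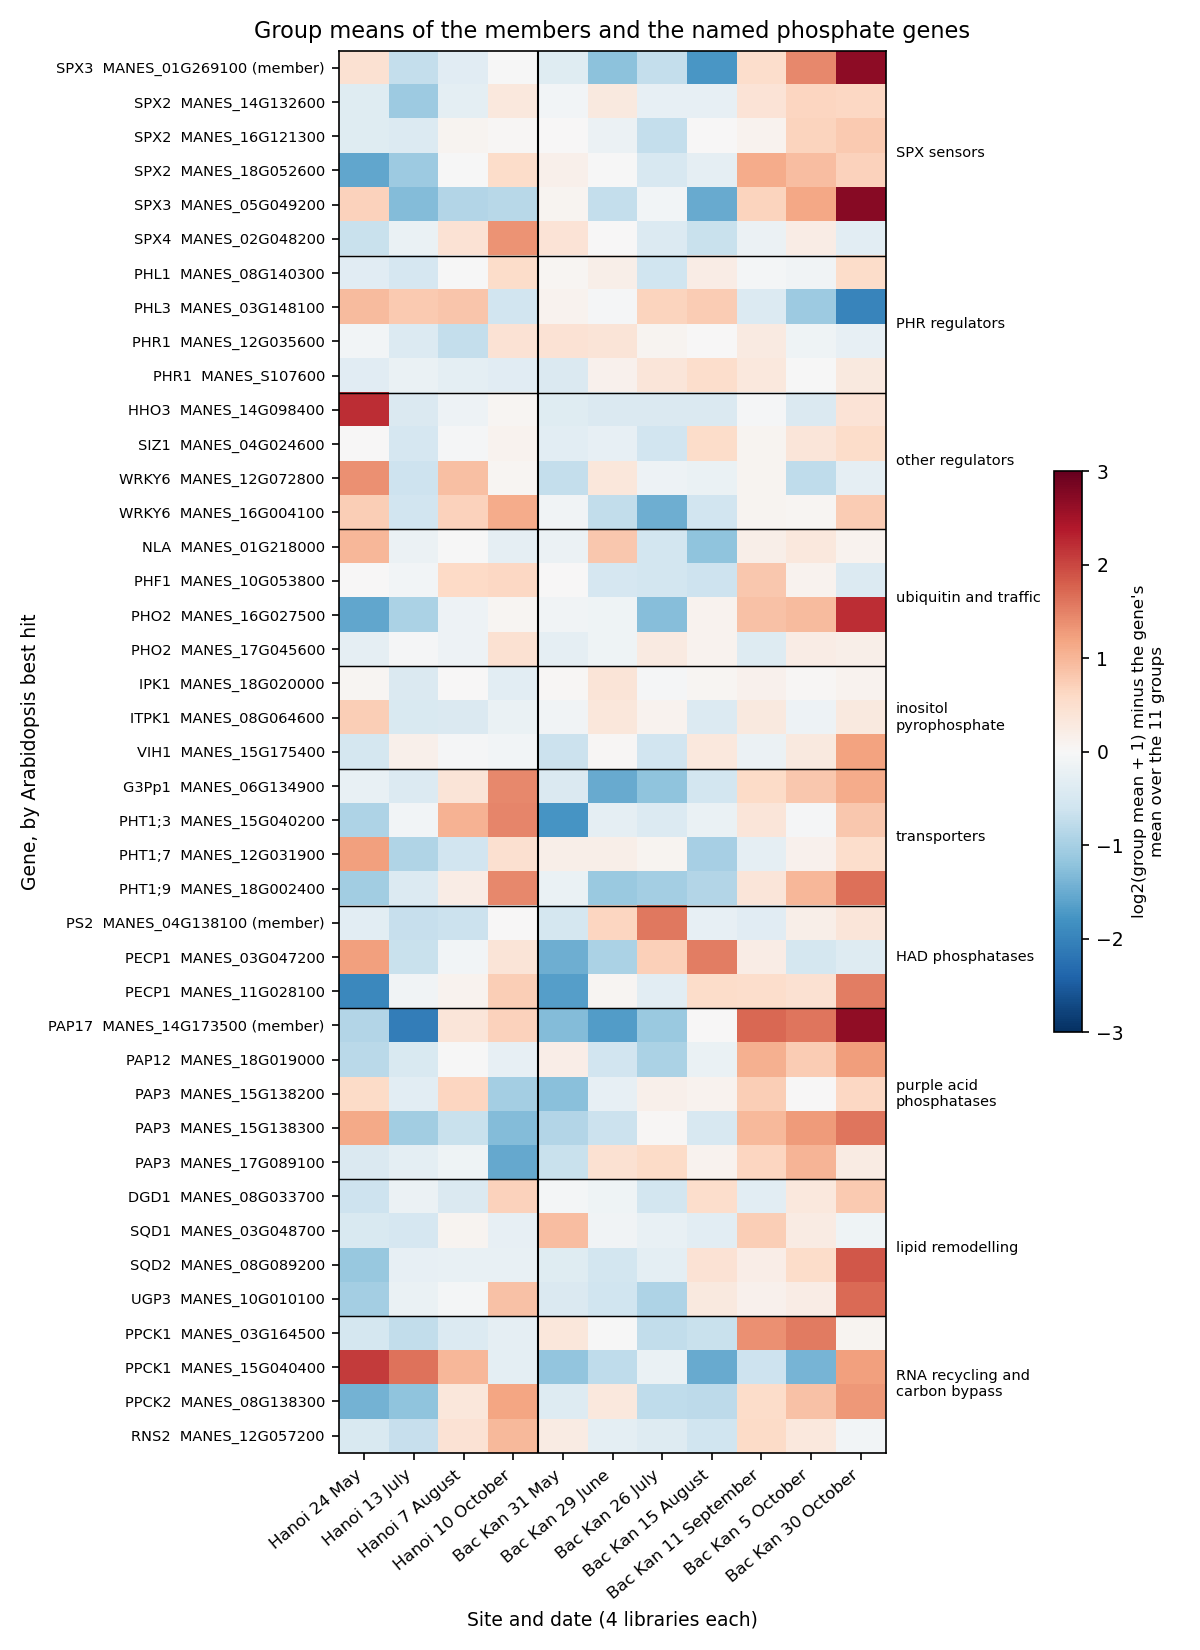
Log2(group mean + 1) minus each gene's mean over the 11 groups, on a colour scale, for the 3 members and 38 other phosphate genes (rows, ordered by role) in the 11 groups (columns, by site and date). PAP17 and SPX3 are highest in Bac Kan on 30 October, as are PECP1 MANES_11G028100, PHO2 MANES_16G027500 and SQD2, while PS2 is highest in Bac Kan on 26 July.

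Bac Kan 30 October, where PAP17 and SPX3 were highest, was also the group with the highest mean of 29 of the 84 list genes, or 34.52%, against 16.27% of all genes tested. Bac Kan 26 July, where PS2 was highest, held the highest mean of 2 list genes, or 2.381%, against 5.375% of all genes. Hanoi 10 October held it for 16 list genes, or 19.05%, against 17.27%.

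**Figure D5:**
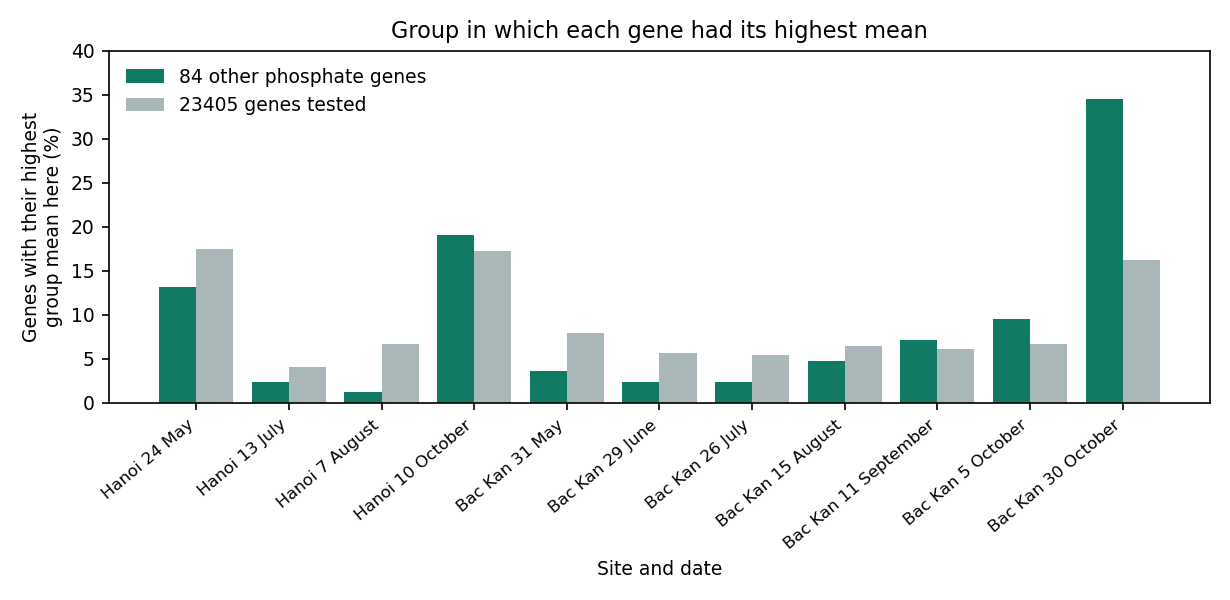
Share of genes (percent) whose highest group mean lies in each of the 11 groups, for the 84 phosphate list genes and for the 23405 genes tested, as bars from 0. Bac Kan 30 October holds 34.52% of the list and 16.27% of all genes, and the other groups hold 1.19% to 19.05% of the list.

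Other markers moved in the same libraries. The leaf marker sum was 7177 to 8232 in Bac Kan on 30 October and 13703 to 16422 on 31 May, with 5 of the 7 genes lower and 1 higher. The summed level of 28 senescence marker genes was 322 to 366 on 30 October and 330 to 1170 on 31 May, and 7 of the 28 were at 0 in all libraries. Of the 11 senescence genes tested 1 was higher, NYE1 MANES_02G030000 by 1.62 ± 0.26 (limma adjusted p = 7.4e-06), and 4 were lower. SEN1 MANES_01G151800 differed by -1.59 ± 0.44 and PAO MANES_04G012500 by -1.03 ± 0.16 (limma adjusted p = 0.0057 and 5.5e-06). PPH MANES_06G024300 differed by -0.66 ± 0.20 and SAG12 MANES_15G123400 by -1.67 ± 0.50 (limma adjusted p = 0.011 and 0.012). SAG12 is the defining cysteine protease of senescing leaves. The most abundant of its 13 homologues, MANES_15G123400, reached 5.78 in Bac Kan on 26 July and was at 0 in all 4 libraries of 30 October. The part of leaf age or leaf makeup in the late levels of PAP17 and SPX3 was not tested.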

How the data were processed

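RNA-seq of 44 leaf libraries in 11 groups was analysed. The authors deposited FPKM per transcript in 11 tables of 41491 transcripts, and reads were aligned with TopHat2 per the submitters' processing notes. For its version, the quantifier and the genome build, nothing is stated (not given in the sources used here). Site and date were taken from the titles, since the characteristics disagree with them for many samples. Columns name a group but no replicate, so a library number is its place in the table. 1 column was not used, a copy in the Bac Kan 30 October table that equals a 5 October column in all 41491 transcripts.

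From these, FPKM were summed per gene (5253 genes had more than 1 transcript) and rescaled to a total of 1000000 per library. Genes at 1 or more in at least 4 libraries were tested as log2(level + 1) with limma 3.58.1 in R 4.3.3, in 1 fit of 11 groups with an empirical Bayes variance trend. Tests were two-sided, and a Benjamini-Hochberg adjusted p under 0.05 over the 23405 genes was a call. Hanoi dates were compared with Bac Kan dates 7, 13, 8 and 5 days apart. The comparisons of the last with the first date were added to the planned ones. The step was tested on simulated data.

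The tables used here hold no counts, so the depth in reads is unknown and no counting error is given. Relative depth was read from how low values are spaced, using 1679 genes. Gene names are those of the Arabidopsis best hit, given for 28526 IDs, and do not separate close copies. No genome or sequence was used here.

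The members, the phosphate list and the marker lists were chosen with earlier results of these data known. The genes named are the members, the other homologues of PS2, PECP1, PAP17 and SPX1 to SPX4, up to 4 genes of each other role with the smallest p for any difference among the groups, and the 5 genes most like each member. Alternatives were the pseudocount, the filter, the scaling, the most abundant transcript, a fit of the compared groups, Bac Kan 29 June for July, other end dates and leaving out each library.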

Additional observations from a re-analysis of the deposited data

Results flagged for a closer look

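In PAP17, 1 library stood far from the other 3 of its group in 4 of the 33 groups of members examined, and 1 of the 4 follows from libraries listed at 0. The usual rate of about 1 in 20 groups holds for normally spread values, which was not shown for these levels. The gap to the nearest library, as a share of the group's range, was 0.829829 for Bac Kan 29 June library 4, at 1.86 against 0 to 0.317. In that Bac Kan group 2 libraries were listed at 0. The gap was 1 for Hanoi 13 July library 2, at 0.702 where the others were listed at 0, so any level above 0 would have given this share and it says nothing of size. It was 0.860218 for Bac Kan 11 September library 3, at 21.4 against 12.7 to 13.9. It was 0.920963 for Bac Kan 30 October library 3, at 11.3 against 35.3 to 37.4. The critical share for 4 libraries is 0.829, and PS2 and SPX3 had no library past it.

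The difference between the sites changed over the 4 pairs of dates for 25 of the 38 named phosphate genes tested (limma F test). Most of the 38 were named for a small p over all groups, which includes this change, so their share is not set beside that of all genes. For the whole list it was 39 of 84, or 46.4%, against 38.1% of all genes tested. Of the PS2 relatives the adjusted p was below the threshold for PECP1 MANES_03G047200 at 1.166e-05. Of the SPX homologues the adjusted p was below the threshold for SPX4 MANES_02G048200 at 0.001571 and SPX2 MANES_18G052600 at 0.004326. Of the PHR homologues the adjusted p was below the threshold for PHR1 MANES_12G035600 at 0.007451. Of the other regulators the adjusted p was below the threshold for HHO3 MANES_14G098400 at 0.0002495, SIZ1 MANES_04G024600 at 0.03126 and WRKY6 MANES_12G072800 at 0.00314. Of the ubiquitin and traffic genes the adjusted p was below the threshold for PHO2 MANES_16G027500 at 9.91e-05 and NLA MANES_01G218000 at 0.02959. Of the inositol pyrophosphate genes the adjusted p was below the threshold for VIH1 MANES_15G175400 at 0.009222. Of the transporters the adjusted p was below the threshold for PHT1;3 MANES_15G040200 at 0.0002341, PHT1;9 MANES_18G002400 at 0.00557 and PHT1;7 MANES_12G031900 at 0.001317. Of the purple acid phosphatases the adjusted p was below the threshold for PAP3 MANES_15G138200 at 2.954e-08, PAP3 MANES_15G138300 at 2.571e-07, PAP12 MANES_18G019000 at 0.004973 and PAP3 MANES_17G089100 at 4.925e-05. Of the lipid genes the adjusted p was below the threshold for SQD2 MANES_08G089200 at 0.005104, UGP3 MANES_10G010100 at 0.0001625, DGD1 MANES_08G033700 at 8.834e-07 and SQD1 MANES_03G048700 at 1.95e-05. Of the RNA recycling and carbon bypass genes the adjusted p was below the threshold for PPCK1 MANES_15G040400 at 0.02393, PPCK2 MANES_08G138300 at 0.02014, PPCK1 MANES_03G164500 at 0.01642 and RNS2 MANES_12G057200 at 0.02871.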

How the results depend on the processing

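No paired analysis was possible because the columns carry no replicate numbers. Of 221 values of calls and member differences under other settings, 199 stayed within the bounds used (a count within 1.5 times, a difference within 1 SD), and of 892 without a library 881 did. These bounds are wide. Counts were also refitted without libraries outside the groups compared. A difference can turn in sign within 1 SD, as that of SPX3 in July did without a single library. With a pseudocount of 0.1 the PAP17 difference was 2.37 in July, 4.85 over the Bac Kan season and 2.69 over the Hanoi season, and SPX3 in August was -2.43. With a pseudocount of 5 PAP17 was 0.27 in July and 2.45 over the Bac Kan season, SPX3 was 2.45 over the Bac Kan season, and the member homologues had 1 call in July and 2 in August. With median-ratio scaling PS2 was 0.75 over the Bac Kan season. With the most abundant transcript alone PAP17 in July was -0.19. In a fit of the compared groups the phosphate list had 15 calls in late May and 4 in July, and the homologues 1 in July. With Bac Kan 29 June in the July pair PS2 was 1.33 and PAP17 0.29.

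End dates were also changed after seeing the data. With 5 October as the last Bac Kan date the list had 27 calls, PS2 was 0.71, PAP17 2.70 and SPX3 1.82, and PPCK1 MANES_15G040400 turned to -0.21. With 13 July as the first Hanoi date PS2 was 0.66, PAP17 2.65 and SPX3 1.28, and the signs turned for HHO3 MANES_14G098400 (0.43), WRKY6 MANES_12G072800 (0.67), ITPK1 MANES_08G064600 (0.36) and PHT1;7 MANES_12G031900 (1.40). Without 1 library the list had 5 to 11 calls in July, and the homologues 0 to 2 in July and 1 to 2 in August. The July homologue calls fell to 0 without Hanoi 13 July library 3 or library 4, and to 1 without its library 1 or Bac Kan 26 July library 1. The August homologue calls were 2 without Hanoi 24 May library 1 or 4, Hanoi 13 July library 3, Bac Kan 15 August library 2 or Bac Kan 30 October library 2. The causes were not tested. PAP17 lies near the lower end of the scale through July, and SPX3 in Bac Kan on 15 August, and the PAP17 difference in July and the SPX3 difference in August moved with the pseudocount.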

Other observations

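Other phosphate genes held site patterns of their own. WRKY6 MANES_16G004100, whose Arabidopsis counterpart represses PHO1, was lower in Bac Kan in all 4 pairs, with differences of -0.89 ± 0.28, -0.90 ± 0.28, -1.31 ± 0.28 and -1.05 ± 0.28 in season order (limma adjusted p = 0.015, 0.038, 0.00085 and 0.0049), with no overlap of libraries in any pair. The July difference no longer passed under a pseudocount of 5 (adjusted p = 0.061) and in a fit of the compared groups (adjusted p = 0.11). It was also lost without Hanoi 13 July library 2, 3 or 4, and without Bac Kan 26 July library 1 or 3. The late May difference did not pass without Bac Kan 31 May library 2 (adjusted p = 0.074). PPCK1 MANES_15G040400, a kinase of phosphoenolpyruvate carboxylase, was lower in Bac Kan, with differences of -3.30 ± 0.44 in late May and -2.50 ± 0.44 in August (limma adjusted p = 2.5e-07 and 5.6e-05). Its July difference of -1.74 also passed, but not under a pseudocount of 0.1 or in a fit of the compared groups, and October did not pass. Another PPCK1 homologue, MANES_03G164500, was higher in Bac Kan in October by 1.86, a call kept in every alternative fit.

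PAP3 MANES_15G138200 and PAP3 MANES_15G138300 went opposite ways over the season at the sites. PAP3 MANES_15G138200 rose by 1.83 ± 0.23 in Bac Kan and fell by 1.58 ± 0.23 in Hanoi (limma adjusted p = 6.4e-08 and 4.7e-07). PAP3 MANES_15G138300 rose by 2.57 ± 0.39 in Bac Kan and fell by 2.41 ± 0.39 in Hanoi (limma adjusted p = 2.7e-06 and 3.7e-06). With 13 July as the first Hanoi date the Hanoi difference of PAP3 MANES_15G138300 was -0.01 (adjusted p = 1.0).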
